A study of Homo sapiens with 20 samples.

Results

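The neutrophil-attracting CXC chemokine genes CXCL1, CXCL2, CXCL3, CXCL5, CXCL6 and CXCL8 were followed in 20 RNA sequencing libraries from 5 established human cell lines. They are 6 of the 35168 genes in the deposited table and were chosen as chemokines that carry the Glu-Leu-Arg (ELR) motif, with no measured value in the rule. The leukemia side consists of Kasumi-1, a myeloblastic line, with NOMO-1 and THP-1, a pair of monocytic lines, all from acute myeloid leukemia (AML). The vessel side consists of iHUVEC and TIME, which stand for the endothelium of blood vessels. Each line gave 1 library with interferon gamma and tumor necrosis factor alpha together (IFNg+TNFa), 1 with TNFa, 1 with IFNg and 1 without treatment. Each cytokine was used at 10 ng/ml for 24 h. The line is the replicate, so a treatment had 3 AML libraries and 2 endothelial libraries, and no treatment was repeated within a line. Cultured lines stand in for leukemia cells and vessel walls here, with no neutrophils present, and protein was not analysed here.

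ELR chemokines are small secreted proteins that bind the receptor CXCR2 on neutrophils, and CXCL6 and CXCL8 also bind CXCR1. Endothelium shows them on its surface proteoglycans, where they make rolling neutrophils stop and cross the vessel wall. Their transcription is switched on by the factor NF-kB when TNFa binds its receptor, and their short-lived transcripts are removed by proteins that bind AU-rich elements.

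The proximal promoters are shown because all 6 genes hold the same 9-base NF-kB-type site close to their start. Promoter windows of RefSeq (GRCh38.p14; 250 bases before to 50 after the start) were matched for 6 of 6 genes. The stretches below are read 5′ to 3′ along each gene, with 50 bases before and 67 after the site, which is in capitals.
CXCL1, chr4:73869265-73869390, plus strand: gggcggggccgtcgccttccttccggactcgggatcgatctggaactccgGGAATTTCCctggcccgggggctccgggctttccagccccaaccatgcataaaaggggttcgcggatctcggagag
CXCL2, chr4:74099197-74099322, minus strand: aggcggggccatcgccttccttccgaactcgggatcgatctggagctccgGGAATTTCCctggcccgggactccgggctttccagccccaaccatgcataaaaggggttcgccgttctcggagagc
CXCL3, chr4:74038692-74038817, minus strand: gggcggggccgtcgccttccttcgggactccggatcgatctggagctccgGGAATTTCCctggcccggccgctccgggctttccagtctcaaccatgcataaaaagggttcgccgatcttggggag
CXCL5, chr4:73998692-73998817, minus strand: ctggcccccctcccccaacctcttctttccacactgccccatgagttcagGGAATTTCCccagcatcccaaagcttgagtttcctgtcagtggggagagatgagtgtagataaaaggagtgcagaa
CXCL6, chr4:73836539-73836664, plus strand: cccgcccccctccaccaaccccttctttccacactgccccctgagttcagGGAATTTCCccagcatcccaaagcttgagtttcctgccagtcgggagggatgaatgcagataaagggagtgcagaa
CXCL8, chr4:73740428-73740553, plus strand: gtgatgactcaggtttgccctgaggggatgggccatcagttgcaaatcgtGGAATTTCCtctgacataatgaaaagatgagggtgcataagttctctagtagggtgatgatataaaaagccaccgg
The site GGAATTTCC, searched on both strands, was present in 6 of 6 promoters and in 162 of 35116 RefSeq promoters of the same length (0.461%). Its first base lay at -78 in CXCL1, -77 in CXCL2, -78 in CXCL3, -90 in CXCL5, -89 in CXCL6 and -91 in CXCL8, counted from the RefSeq start. The longer NF-kB consensus overlapped it in 5 of 6 and was not matched in CXCL8. That consensus was present in 11.3% of all promoters. The AP-1 letters TGANTCA were matched in CXCL8 alone among the 6, at -137, and in 7.71% of all promoters. The C/EBP letters TTGCNNAA were matched in CXCL2 alone, on the opposite strand at -188, and in 10.5% of all promoters. CXCL8 holds ttgcaaat shortly before the 9-base site, which departs from those letters in the last base and was not counted. The interferon-gamma-activated site TTCNNNGAA was matched in CXCL5 at -95 and in CXCL6 at -94, where it overlaps the 9-base site, and in 7.66% of all promoters. The interferon-stimulated response element, searched by its consensus, was in 0 of 6 windows and in 3.57% of all promoters. A match of letters is a description and shows no binding. The 9-base site was the reason for showing these promoters, so its 6 of 6 was known beforehand and is no test against other promoters. Nor are the 6 stretches independent, given the identities below.

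The aligned stretches fell into 3 families. Those of CXCL1 and CXCL2 were 92.9% identical, those of CXCL1 and CXCL3 91.3% and those of CXCL2 and CXCL3 88.2%. CXCL5 and CXCL6 were 91.3% identical, and CXCL8 was between 40.5 and 45.5% identical to the others. CXCL1, CXCL2 and CXCL3 are close paralogs, as are CXCL5 and CXCL6, so reads shared within these sets may have been divided between their members. The effect of that division was not tested.

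Levels are in TPM, a share of transcripts corrected for their length, so levels of different genes can be set side by side. TPM keeps no depth, so the sequencing depth is unknown. The number of genes at 1 TPM or more was 7510 to 12353 per library. In NOMO-1, 73.2 to 82.1% of the listed TPM was mitochondrial against 11.9 to 24.8% in the other lines, so NOMO-1 levels of other genes are low on this scale. Endothelial markers fitted the labels in endothelial lines, with 7 of 7 at 1 TPM or more in all 8 libraries. In all 12 AML libraries CDH5, VWF, KDR, TEK and TIE1 were under 1 TPM. PECAM1 had 0.753 to 21.7 TPM in AML libraries, and CLDN5 reached 1.07 TPM in THP-1 with TNFa. The summed level of the endothelial list was 1.09 to 23.1 TPM in AML libraries and 770 to 2178 TPM in endothelial libraries. Of 7 myeloid markers, 6 were at 1 TPM or more in every AML library, and PTPRC, SPI1, CD33 and MPO were under 1 TPM in all endothelial libraries. The AML exception was MPO, at or below 0.951 TPM in THP-1, and in NOMO-1 at 0.602 TPM with TNFa and 0.140 TPM with IFNg+TNFa. The myeloid list summed to 476 to 6055 TPM in AML libraries and 26.3 to 115 TPM in endothelial libraries. In the latter CD68, a lysosomal gene, had 24.1 to 114 TPM and LYZ and ITGB2 were at or below 1.60 TPM. The 4 epithelial markers summed to at most 107 TPM in an AML library and 0.934 TPM in an endothelial one, with CDH1, KRT5 and KRT14 under 1 TPM in all. The AML level came from EPCAM in Kasumi-1, and its part in the Kasumi-1 values below was not tested.

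Untreated, the chemokine levels differed widely between lines of the same cell type. CXCL8, the interleukin-8 gene, had 36.6 TPM in Kasumi-1, 1.25 TPM in NOMO-1 and 1.58 TPM in THP-1, against 4.33 TPM in iHUVEC and 47.5 TPM in TIME. CXCL1 had 5.82 TPM in Kasumi-1, 0.475 TPM in NOMO-1 and 0.456 TPM in THP-1, against 5.57 TPM in iHUVEC and 67.2 TPM in TIME. CXCL2 had 2.24, 0.608 and 0.104 TPM in Kasumi-1, NOMO-1 and THP-1, against 3.21 TPM in iHUVEC and 8.21 TPM in TIME. Kasumi-1 was the highest AML line and TIME the higher endothelial line for each of these genes, and the CXCL8 and CXCL1 ranges of both cell types overlapped. CXCL3, a close relative of CXCL1, had 1.39 TPM in Kasumi-1 and was listed at 0 in NOMO-1 and THP-1, against 1.11 TPM in iHUVEC and 2.02 TPM in TIME. CXCL5 and CXCL6, each other's closest relatives, were under 0.5 TPM in all 5 lines. In RNA from whole cultures, fewer expressing cells and less RNA per cell cannot be told apart.

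**Figure D1:**
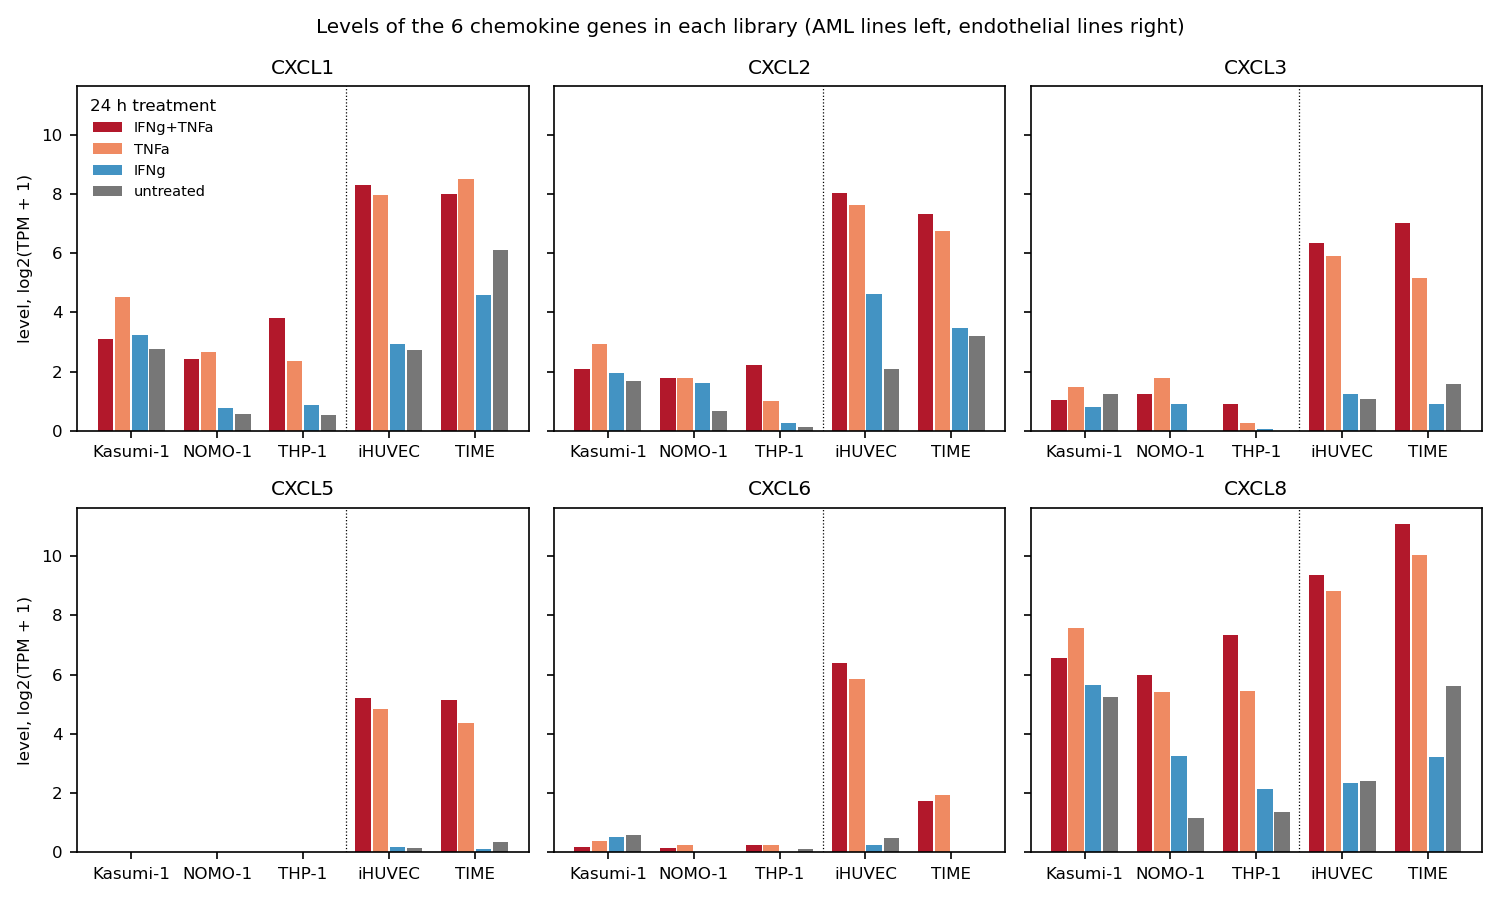
Level of each chemokine gene in each of the 20 libraries, as log2(TPM + 1) on the vertical axis, with 1 bar per library, coloured by treatment, and a dotted line between AML lines and endothelial lines. CXCL5 has no bar in any AML line, CXCL6 is high in iHUVEC and low in TIME, and CXCL8 is the tallest gene in TIME with IFNg+TNFa, at 2170 TPM.

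TNFa alone raised 5 of the 6 genes in endothelial lines, and none passed the test in AML lines. Changes are differences of log2(TPM + 1) ± the moderated standard error, tested in limma with a term for the line, and a gene was called at a Benjamini-Hochberg adjusted p under 0.05 over 15043 genes. In AML lines CXCL8 had 188 TPM in Kasumi-1, 41.8 TPM in NOMO-1 and 42.3 TPM in THP-1 with TNFa, against 36.6, 1.25 and 1.58 TPM untreated. Each line was above its own untreated level, by 5.12-fold in Kasumi-1, 33.4-fold in NOMO-1 and 26.8-fold in THP-1, and the 2 groups did not overlap. The share of all genes with such a separation was not counted, here or for the groups below. CXCL8 did not pass the test over the 3 AML lines (adjusted p = 0.096) and passed it without Kasumi-1 (4.16 ± 0.59, adjusted p = 0.032).

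The other AML values under TNFa were lower. CXCL1 had 21.8 TPM in Kasumi-1, 5.34 TPM in NOMO-1 and 4.19 TPM in THP-1 with TNFa, against 5.82, 0.475 and 0.456 TPM untreated (1.89 ± 0.62, adjusted p = 0.527). CXCL2 had 6.55, 2.48 and 1.02 TPM with TNFa, against 2.24, 0.608 and 0.104 TPM untreated in the same order of lines (1.07 ± 0.43, adjusted p = 0.669). CXCL1 and CXCL2 were thus higher in each AML line than in that line untreated, with overlap between the groups. CXCL3 stayed at or below 2.49 TPM in AML lines under TNFa (0.77 ± 0.35, adjusted p = 0.711), CXCL5 was listed at 0 and CXCL6 was at or below 0.292 TPM. In limma 0 of 6 members were called, beside 0.0864% of all genes, each of these higher. An unadjusted p under 0.05 was found for 4 members, beside 6.94% of all genes.

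Endothelial lines under TNFa reached higher levels. CXCL8 had 456 TPM in iHUVEC and 1041 TPM in TIME with TNFa, against 4.33 and 47.5 TPM untreated, a ratio of 105 in iHUVEC and of 21.9 in TIME. CXCL1 had 250.4 TPM in iHUVEC and 365 TPM in TIME with TNFa, against 5.57 and 67.2 TPM untreated (3.84 ± 0.76, adjusted p = 0.031). CXCL2 had 196 TPM in iHUVEC and 106 TPM in TIME with TNFa, against 3.21 and 8.21 TPM untreated (4.55 ± 0.53, adjusted p = 7.7e-04). For each of the 3 genes both treated libraries lay above both untreated ones, a separation of small groups that was not set against all genes. The ratio was larger in iHUVEC than in TIME for each, for CXCL1 at 45.0 against 5.43. CXCL3 had 59.2 TPM in iHUVEC and 34.8 TPM in TIME with TNFa, against 1.11 and 2.02 TPM untreated (4.20 ± 0.43, adjusted p = 3.0e-04). CXCL5 had 27.3 TPM in iHUVEC and 19.9 TPM in TIME with TNFa, against 0.119 and 0.268 TPM untreated (4.35 ± 0.18, adjusted p = 7.1e-08).

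CXCL6 parted the endothelial lines. It had 56.2 TPM in iHUVEC and 2.79 TPM in TIME with TNFa, against 0.406 TPM in untreated iHUVEC and a listed 0 in untreated TIME. Over both lines its change of 3.63 ± 0.80 missed the threshold (adjusted p = 0.055), with an error understated by AML libraries under 0.5 TPM. With TIME left out it was 5.35 ± 0.25 (adjusted p = 3.8e-05) and with iHUVEC left out 1.92 ± 0.23 (adjusted p = 0.009), each from 1 endothelial line whose spread was taken from the AML lines.

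The 5 of 6 called higher in endothelial lines under TNFa stand beside 0.784% of all tested genes called higher. All 6 passed the filter of 1 TPM in at least 2 libraries, but CXCL5 and CXCL6 reached 1 TPM in 4 libraries alone, the endothelial ones with TNFa or IFNg+TNFa, so passing it already needed a high treated group. The error of CXCL5 is understated, since its AML libraries at 0 add no spread; in the endothelial libraries alone it was 0.21 (adjusted p = 0.004). The count was 3 without iHUVEC, where CXCL1 (adjusted p = 0.856), CXCL2 (0.072) and CXCL8 (0.511) lost the call and CXCL6 gained it. CXCL8 also lost it without TIME (adjusted p = 0.099), and CXCL1 kept it under 4 of 13 alternatives. CXCL3 and CXCL5 were called under all 13 alternatives.

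IFNg+TNFa gave the highest summed level of the family in 4 of the 5 lines and raised all 6 genes in endothelial lines and 2 in AML lines. In AML lines CXCL8 had 92.3 TPM in Kasumi-1, 61.7 TPM in NOMO-1 and 161 TPM in THP-1 with IFNg+TNFa, against 36.6, 1.25 and 1.58 TPM untreated (4.03 ± 0.70, adjusted p = 0.002). These groups did not overlap. CXCL1 had 7.52, 4.32 and 12.9 TPM in Kasumi-1, NOMO-1 and THP-1 with IFNg+TNFa, against 5.82, 0.475 and 0.456 TPM untreated (1.81 ± 0.62, adjusted p = 0.049), with NOMO-1 treated below Kasumi-1 untreated. CXCL1 lost the call without NOMO-1 (adjusted p = 0.172), THP-1 (0.319), iHUVEC or TIME (0.061 each). CXCL2 had 3.26, 2.43 and 3.68 TPM with IFNg+TNFa, against 2.24, 0.608 and 0.104 TPM untreated (1.19 ± 0.43, adjusted p = 0.060). CXCL2 passed under median-of-ratios scaling (adjusted p = 0.018) and with mitochondrial genes removed (0.022). CXCL3 had 0.872 to 1.36 TPM with IFNg+TNFa (0.64 ± 0.35, adjusted p = 0.192), CXCL5 was listed at 0 in all 3 lines and CXCL6 was at or below 0.176 TPM. The 2 of 6 called higher stand beside 7.33% of all genes.

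In endothelial lines CXCL8 had 663 TPM in iHUVEC and 2170 TPM in TIME with IFNg+TNFa, against 4.33 and 47.5 TPM untreated (6.22 ± 0.86, adjusted p = 6.9e-04). That placed it 50th among all genes of the TIME library and 208th among those of iHUVEC. CXCL1 had 311 TPM in iHUVEC and 256 TPM in TIME with IFNg+TNFa, against 5.57 and 67.2 TPM untreated (3.74 ± 0.76, adjusted p = 0.006). CXCL2 had 263 and 159 TPM in iHUVEC and TIME with IFNg+TNFa, against 3.21 and 8.21 TPM untreated (5.04 ± 0.53, adjusted p = 1.2e-04). Each treated library of these genes lay above both untreated ones. CXCL3 had 80.2 TPM in iHUVEC and 127 TPM in TIME with IFNg+TNFa, against 1.11 and 2.02 TPM untreated (5.34 ± 0.43, adjusted p = 1.5e-05). CXCL5 had 35.8 TPM in iHUVEC and 34.2 TPM in TIME with IFNg+TNFa, against 0.119 and 0.268 TPM untreated (4.92 ± 0.18, adjusted p = 1.5e-08). CXCL6 had 82.3 TPM in iHUVEC and 2.32 TPM in TIME with IFNg+TNFa, against 0.406 TPM and a listed 0 untreated (3.81 ± 0.80, adjusted p = 0.007).

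The 6 of 6 called higher in endothelial lines stand beside 4.18% of all genes. CXCL5 and CXCL6 passed the filter through endothelial libraries with TNFa or IFNg+TNFa alone, so being tested already needed a high treated group. The errors of CXCL5 and CXCL6 are understated here as under TNFa. The CXCL6 change was 5.89 in iHUVEC and 1.73 in TIME, while its AML libraries, all under 0.5 TPM, add little spread. The median change over the 6 was 4.98, against -0.22 over all tested genes, and that over all genes was 0.00 under median-of-ratios scaling, where 6 of 6 were again called. Without iHUVEC CXCL1 (1.91 ± 0.94, adjusted p = 0.317) and CXCL8 (5.48 ± 1.39, adjusted p = 0.059) lost the call.

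**Figure D2:**
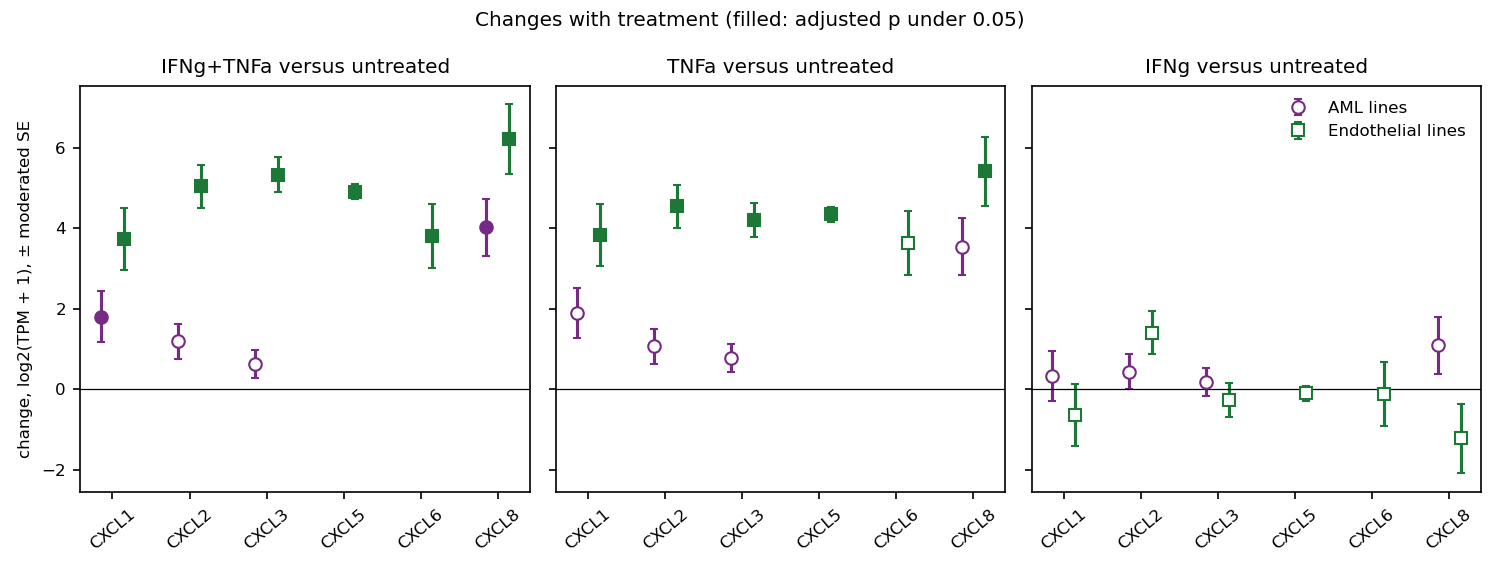
Change of each gene against untreated cells, as the difference of log2(TPM + 1) with bars of ± 1 moderated standard error, for AML lines (circles) and endothelial lines (squares) in 1 panel per treatment. Filled symbols have an adjusted p under 0.05; CXCL5 and CXCL6 are not drawn for AML lines, where they stayed under 0.5 TPM, and CXCL1 and CXCL8 are the filled AML genes, both under IFNg+TNFa.

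IFNg alone changed none of the 6 genes by the test in either cell type. In AML lines CXCL8 had 48.6 TPM in Kasumi-1, 8.61 TPM in NOMO-1 and 3.41 TPM in THP-1 with IFNg, against 36.6, 1.25 and 1.58 TPM untreated (1.09 ± 0.70, adjusted p = 0.721). In endothelial lines it had 4.12 TPM in iHUVEC and 8.25 TPM in TIME with IFNg, against 4.33 and 47.5 TPM untreated (-1.22 ± 0.86, adjusted p = 1.000). CXCL8 was thus above the untreated level in each AML line and below it in each endothelial line, with the difference in iHUVEC being small. CXCL1 in TIME had 23.3 TPM with IFNg, against 67.2 TPM untreated, and in iHUVEC 6.59 TPM with IFNg, against 5.57 TPM untreated (-0.64 ± 0.76). CXCL2, by contrast, had 23.5 TPM in iHUVEC with IFNg, against 3.21 TPM untreated, and 10.1 TPM in TIME with IFNg, against 8.21 TPM untreated (1.41 ± 0.53, adjusted p = 0.685). CXCL3 was at or below 0.896 TPM in AML lines and 1.34 TPM in endothelial lines with IFNg, and CXCL5 and CXCL6 stayed under 0.5 TPM in all 5 lines. The 7.33-fold higher CXCL2 level in iHUVEC comes from 1 library of each kind and has no repeat. In limma 0 of 6 members were called in AML lines, with 0 at an unadjusted p under 0.05, and 0.645% of all genes were called. In endothelial lines 0 of 6 were called, with 1 at an unadjusted p under 0.05 (CXCL2), and 0.425% of all genes were called. The difference between the IFNg responses was called for 0 of 6 members, with 0 at an unadjusted p under 0.05 in limma, and for 0.00665% of all genes. Shares of all genes at that unadjusted cut were 8.85% in AML lines, 5.05% in endothelial lines and 3.71% for the difference.

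Adding IFNg to TNFa split the AML lines. In THP-1, a monocytic line, CXCL8 had 161 TPM with IFNg+TNFa, against 42.3 TPM with TNFa alone, a ratio of 3.81, and the ratio was 3.08 for CXCL1 and 3.60 for CXCL2. Kasumi-1 had 92.3 TPM with IFNg+TNFa, against 188 TPM with TNFa alone, a CXCL8 ratio of 0.492, and 0.345 for CXCL1, 0.497 for CXCL2 and 0.573 for CXCL3. NOMO-1 lay between them for CXCL8 (1.47), CXCL1 (0.809) and CXCL2 (0.976), and its CXCL3 ratio of 0.547 was below that of Kasumi-1. All 4 measured ratios were thus below 1 in Kasumi-1, and the 3 formed in THP-1, where CXCL3 was too low for a ratio, were above 3. With 1 library per line and treatment, the difference between lines has no replicate check. Over the 3 lines 0 of 6 members were called in limma, 0 had an unadjusted p under 0.05, and 6.59% of all genes were called. The unadjusted cut was passed by 26% of all genes.

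Endothelial lines mostly had more of these transcripts with IFNg+TNFa than with TNFa. In iHUVEC the ratio lay between 1.24 for CXCL1 and 1.46 for CXCL6, with 1.34 for CXCL2, 1.36 for CXCL3, 1.31 for CXCL5 and 1.45 for CXCL8. In TIME it was 3.66 for CXCL3, 2.09 for CXCL8, 1.72 for CXCL5 and 1.49 for CXCL2, but 0.700 for CXCL1 and 0.832 for CXCL6. The genes thus moved alike in iHUVEC and unlike in TIME, where CXCL3 had 127 TPM with IFNg+TNFa, against 34.8 TPM with TNFa. Over both lines 0 of 6 were called in limma, beside 3.9% of all genes, and 2 had an unadjusted p under 0.05, beside 17.8%. Those 2 were CXCL3 (1.14 ± 0.43, adjusted p = 0.176) and CXCL5 (0.57 ± 0.18, adjusted p = 0.108), and CXCL5 passed without iHUVEC (0.76 ± 0.13, adjusted p = 0.019). That last value rests on TIME alone with all AML libraries at 0, so no library gives CXCL5 a spread and its error comes from the moderation over all genes.

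**Figure D3:**
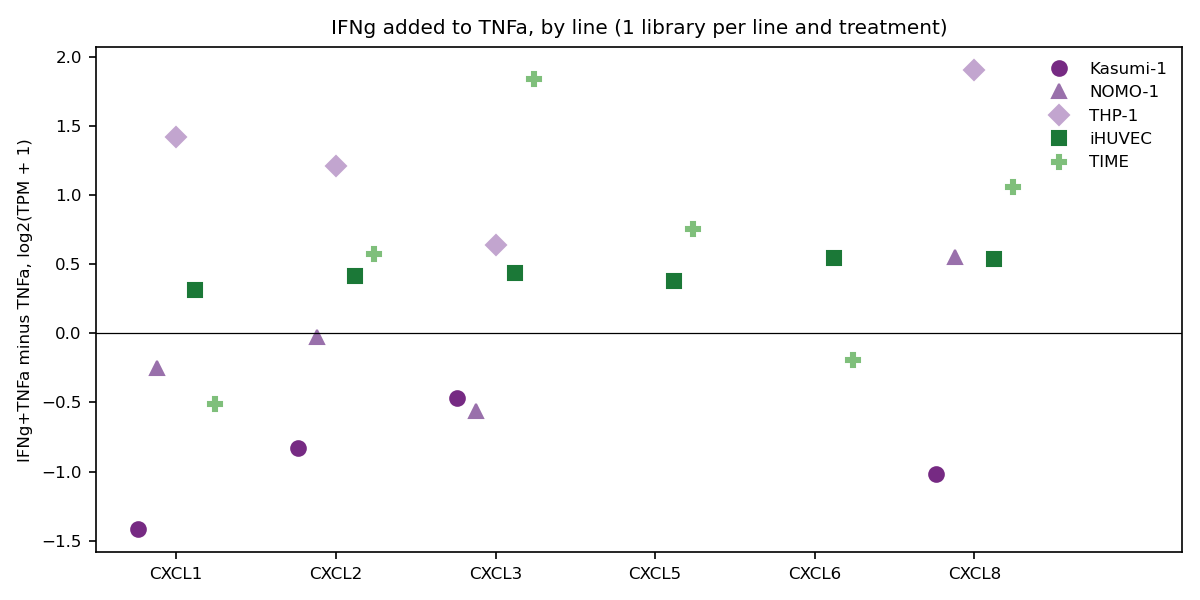
Difference between IFNg+TNFa and TNFa alone in each line, as log2(TPM + 1), with 1 point per line and gene and no error because each rests on 1 library of each kind. THP-1 points lie above 0 and Kasumi-1 points below 0 for each gene drawn, iHUVEC points lie close together above 0, and CXCL5 and CXCL6 are not drawn for AML lines.

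The responses of the cell types were then set against each other in the same fit. The TNFa response was smaller in AML lines than in endothelial lines for CXCL3 (difference -3.44 ± 0.55, adjusted p = 0.019) and CXCL5 (-4.35 ± 0.23, adjusted p = 1.7e-06), 2 of 6 members beside 0.153% of all genes called lower. The CXCL5 difference holds no AML response, as CXCL5 was listed at 0 in all 12 AML libraries. CXCL5 passed the filter through treated endothelial libraries alone, so being tested already needed the difference, and its error is understated. CXCL2 (-3.48 ± 0.69, adjusted p = 0.080), CXCL6 (-3.58 ± 1.04, adjusted p = 0.401), CXCL1 (-1.95 ± 0.99, adjusted p = 1.000) and CXCL8 (-1.87 ± 1.11, adjusted p = 1.000) did not pass. CXCL3 kept the call under 4 of 12 alternatives. The call was lost without Kasumi-1 (adjusted p = 0.079), NOMO-1 (0.055), THP-1 (0.224) or iHUVEC. A pseudocount of 0.1, median-of-ratios scaling, removal of mitochondrial genes and no line block each lost it as well.

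The IFNg+TNFa response was smaller in AML lines for CXCL2 (difference -3.85 ± 0.69, adjusted p = 0.012), CXCL3 (-4.70 ± 0.55, adjusted p = 0.001) and CXCL5 (-4.92 ± 0.23, adjusted p = 3.8e-07), 3 of 6 beside 0.897% of all genes called lower. The CXCL5 difference again holds no AML response, needed high treated endothelial libraries to be tested, and has an understated error. CXCL6 (-3.86 ± 1.04, adjusted p = 0.074), CXCL1 (-1.93 ± 0.99, adjusted p = 0.373) and CXCL8 (-2.19 ± 1.11, adjusted p = 0.370) did not pass. CXCL2 lost the call without iHUVEC (adjusted p = 0.126), with a pseudocount of 0.1 (0.186) and with no line block (0.484). CXCL3 lost it with a pseudocount of 0.1 (adjusted p = 0.174). For CXCL8 the intervals are wide, so these data do not show whether its response differs between the cell types.

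Levels were also compared directly between AML and endothelial lines within each treatment. Untreated, 4 members passed the filter and 0 were called in limma, beside 8.49% of all genes. At an unadjusted p under 0.05 were 2 members, beside 21.6% of all genes. The largest untreated difference was CXCL1 (-3.11 ± 1.18, adjusted p = 0.179), beside a median of -0.88 over the tested genes, or -0.04 under median-of-ratios scaling. With IFNg 3 members passed the filter and 0 were called in limma, beside 9.05% of all genes. The unadjusted cut of 0.05 was met by 1 member, beside 21% of all genes.

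With TNFa, 4 of 6 members were lower in AML lines, beside 7.14% of all genes. CXCL1 averaged 10.4 ± 9.84 TPM in AML lines (SD, n = 3) and 308 ± 80.9 TPM in endothelial lines (SD, n = 2), a difference of -5.06 ± 1.08 (limma, adjusted p = 0.018). CXCL2 averaged 3.35 ± 2.86 TPM in AML lines and 151 ± 63.7 TPM in endothelial lines (-5.27 ± 1.02, adjusted p = 0.012), and CXCL3 1.50 ± 1.18 TPM and 47.0 ± 17.2 TPM (-4.35 ± 0.93, adjusted p = 0.018). The highest AML library was below the lower endothelial one for each of these genes and for CXCL5 (-4.60 ± 0.66, adjusted p = 0.004). How many of all genes part in this way was not counted. CXCL5 passed the filter of this fit through the endothelial libraries alone, so being tested already needed the difference. CXCL8 averaged 90.6 ± 84.1 TPM in AML lines and 749 ± 413 TPM in endothelial lines (-3.29 ± 1.19, adjusted p = 0.141), and CXCL6 did not pass either (-3.60 ± 1.01, adjusted p = 0.057). Leaving out THP-1 left 1 call, and leaving out iHUVEC or TIME left 0, with 1 endothelial library remaining. No member was called with no filter, and CXCL3 also lost the call under median-of-ratios scaling (adjusted p = 0.147) and without mitochondrial genes (0.081).

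With IFNg+TNFa, 5 of 6 members were lower in AML lines, beside 5.8% of all genes. CXCL1 averaged 8.25 ± 4.34 TPM in AML lines and 283 ± 39.4 TPM in endothelial lines (-5.04 ± 1.30, adjusted p = 0.013). CXCL3 averaged 1.09 ± 0.248 TPM in AML lines and 104 ± 33.4 TPM in endothelial lines (-5.62 ± 1.22, adjusted p = 0.003). CXCL2, CXCL5 (-5.17 ± 0.97, adjusted p = 8.9e-04) and CXCL6 (-3.87 ± 1.01, adjusted p = 0.014) were lower as well, and CXCL8 did not pass (-3.61 ± 1.41, adjusted p = 0.144). CXCL5 and CXCL6 passed the filter of this fit through the endothelial libraries alone, so being tested already needed the difference. CXCL6 kept the call under 3 of 8 alternatives, losing it without NOMO-1 (adjusted p = 0.251), under median-of-ratios scaling (0.190), without mitochondrial genes (0.148), with no variance trend (0.205) and with no filter (0.431). The count was 0 without iHUVEC or TIME and 0 with no filter. In these fits the moderation adds up to 28.9 degrees of freedom to 3 residual ones, so the errors lean on the trend over all genes.

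The makeup of the family differed by line. CXCL8 held 53.6 to 90.1% of the summed TPM of the 6 genes in AML libraries. In iHUVEC it held 46.2% with IFNg+TNFa, 43.6% with TNFa, 11.5% with IFNg and 29.4% untreated, and in TIME 79.0, 66.3, 19.4 and 37.9% in the same order. CXCL8 thus had its smallest share under IFNg alone in both endothelial lines. The summed level was 104 TPM in Kasumi-1, 69.9 TPM in NOMO-1, 179 TPM in THP-1, 1435 TPM in iHUVEC and 2749 TPM in TIME with IFNg+TNFa, against 46.6, 2.33, 2.23, 14.7 and 125 TPM untreated. With TNFa alone it was 218, 52.3, 47.9, 1046 and 1569 TPM in the same lines. Kasumi-1 was the line whose sum was higher with TNFa alone than with IFNg+TNFa.

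**Figure D4:**
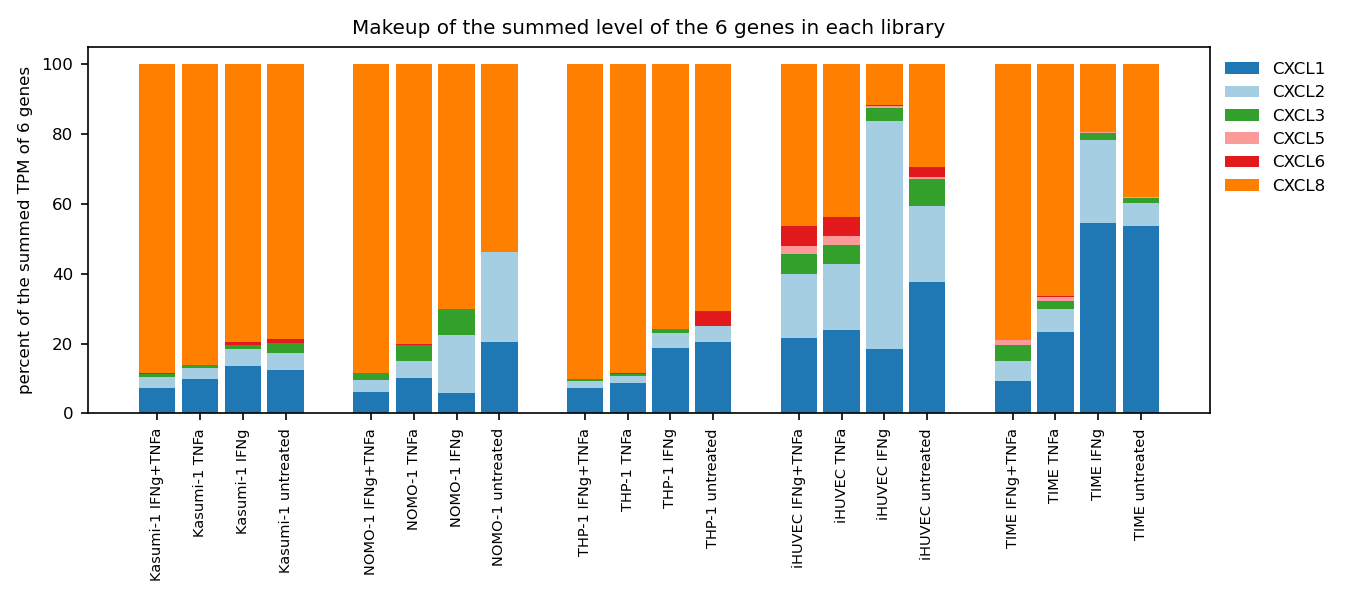
Share of each gene in the summed TPM of the 6 chemokine genes, in percent, with 1 stacked bar per library, grouped by line. CXCL8 fills most of each AML bar, while CXCL1 and CXCL2 fill most of the endothelial bars under IFNg and without treatment.

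Each gene but CXCL5, which has the single form CXCL5-201, has several listed transcripts, and the share of the gene's TPM on each was read in libraries with the gene at 1 TPM or more. The main coding transcript held a median of 86.6% for CXCL8 (CXCL8-201, 20 libraries) and 83.6% for CXCL1 (CXCL1-201, 16 libraries). CXCL2 and CXCL3 were more spread out. CXCL2-202, the coding form, held a median of 57.5% over 17 libraries (range 33.8 to 100%), with 22.2% on the retained-intron form CXCL2-203. CXCL3-201, the coding form, held 69.7% over 12 libraries (range 27.4 to 97.7%). CXCL6 was divided between the coding forms CXCL6-201 and CXCL6-203, with medians of 65.5 and 34.5% over 4 libraries. These shares rest on the division of reads between overlapping transcripts.

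The 6 genes lie within 359 kb of chromosome 4 (GENCODE v29, GRCh38), in an order that runs from CXCL8 (73740506 to 73743716, plus strand) through CXCL6 (73836497 to 73849064, plus) and CXCL1 (73869393 to 73871242, plus) to CXCL5 (73995642 to 73998779, minus), CXCL3 (74036589 to 74038807, minus) and CXCL2 (74097035 to 74099293, minus). Of 16 annotated genes between these ends, 15 were in the table and 6 reached 1 TPM in any library, the 6 chemokine genes themselves. The platelet chemokine genes in the same stretch stayed near 0: PPBP and PF4V1 were listed at 0 in all libraries and PF4 reached 0.394 TPM. The pseudogene PPBPP1, which overlaps CXCL6 on the same strand, was listed at 0.

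**Figure D5:**
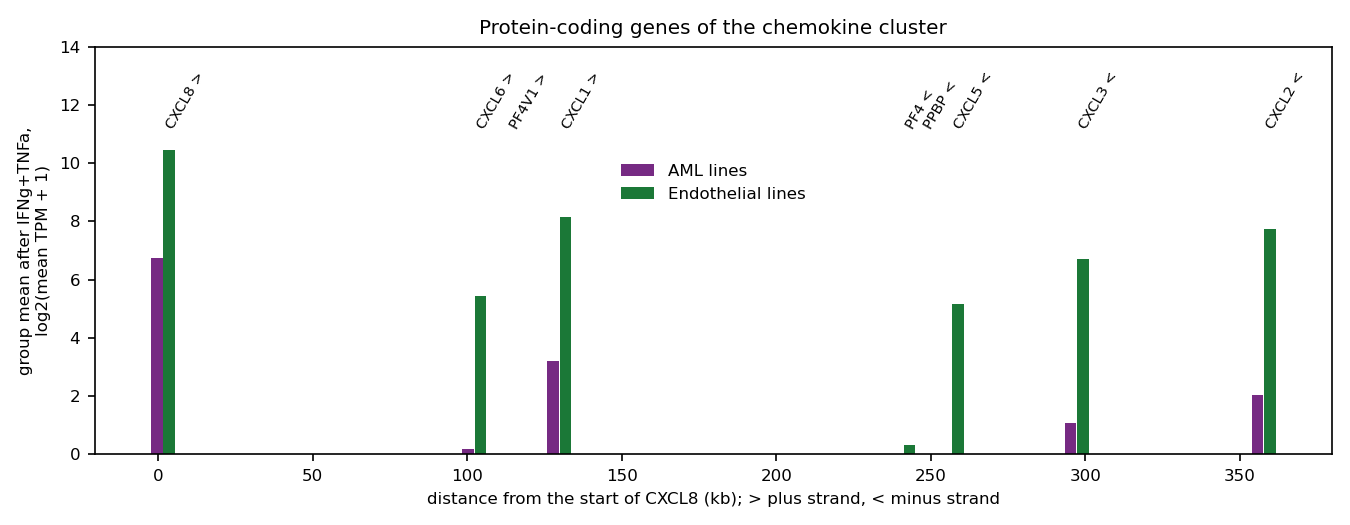
Protein-coding genes of the cluster by distance from the start of CXCL8 (horizontal axis, kb), with bars for log2(mean TPM + 1) after IFNg+TNFa in AML lines (left bar, 3 libraries) and endothelial lines (right bar, 2 libraries), set side by side for visibility. Bars of the endothelial lines are the taller ones at each of the 6 chemokine genes, and PF4V1, PF4 and PPBP have at most a trace.

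The receptor side was tested with the receptors CXCR1 and CXCR2, the scavenger ACKR1 and the proteoglycans SDC1 and SDC4, of which 4 of 5 were tested. In limma 0 of the 4 were called under TNFa in either cell type. In each, 2 had an unadjusted p under 0.05, beside 6.94% of all genes in AML lines and 6.79% in endothelial lines. Under IFNg+TNFa 1 rose and 2 fell in AML lines, where 7.33% of all genes were called higher and 18.6% lower. CXCR2 averaged 0.391 ± 0.556 TPM with IFNg+TNFa and 2.96 ± 2.41 TPM untreated in AML lines (SD, n = 3; -1.38 ± 0.21, adjusted p = 0.001). SDC4 rose (1.40 ± 0.27, adjusted p = 0.004) and SDC1 fell (-1.03 ± 0.35, adjusted p = 0.048). In endothelial lines SDC1, a cell-surface proteoglycan, averaged 0.559 ± 0.0660 TPM with IFNg+TNFa and 7.92 ± 0.799 TPM untreated (SD, n = 2; -2.51 ± 0.43, adjusted p = 0.002), the only one of the 4 to change there, beside 10.3% of all genes called lower. CXCR1 and CXCR2 were at or near 0 in endothelial lines. ACKR1, which carries chemokines across venous endothelium, reached 4.21 TPM in iHUVEC with TNFa and stayed under 0.1 TPM in TIME with TNFa.

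The signalling side was read from 21 genes of the TNF receptor and NF-kB pathway. Under TNFa 5 of 21 rose in AML lines and 5 of 21 in endothelial lines, and under IFNg+TNFa 10 and 8, with none falling, beside 0.0864% and 0.784% of all genes called higher under TNFa and 7.33% and 4.18% under IFNg+TNFa. TNFAIP3, which encodes the NF-kB inhibitor A20, averaged 63.2 ± 54.7 TPM with TNFa and 2.22 ± 1.50 TPM untreated in AML lines (4.01 ± 0.47, adjusted p = 0.006). In endothelial lines TNFAIP3 averaged 134 ± 126 TPM with TNFa and 5.99 ± 3.49 TPM untreated (3.96 ± 0.58, adjusted p = 0.004). NFKBIA, the inhibitor that NF-kB induces against itself, rose in AML lines under TNFa (3.43 ± 0.48, adjusted p = 0.013), as did RELB, an NF-kB subunit, in endothelial lines (3.28 ± 0.45, adjusted p = 0.003). The difference in TNFa response between the cell types was called for 0 of these 21 genes in limma, beside 0.259% of all genes. Its unadjusted p was under 0.05 for 2 of the 21, beside 4.57% of all genes. The receptor TNFRSF1A averaged 55.7 ± 47.4 TPM in untreated AML lines and 138 ± 2.62 TPM in untreated endothelial lines. In the direct untreated comparison 0 of the 21 genes, TNFRSF1A included, were called in limma, beside 8.49% of all genes. The median difference of the 21 was -0.90, against -0.88 over all tested genes.

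Of 12 AP-1, C/EBP and EGR factors, 0 were called under TNFa in AML lines in limma. There 2 had an unadjusted p under 0.05, beside 6.94% of all genes. In endothelial lines 1 rose, JUNB (2.27 ± 0.49, adjusted p = 0.047), beside 0.784% of all genes called higher. Under IFNg+TNFa 4 rose and 1 fell in AML lines, beside 7.33% of all genes called higher and 18.6% lower, and 4 rose in endothelial lines, beside 4.18% called higher. ATF3, a stress-induced factor, averaged 99.6 ± 148 TPM with IFNg+TNFa and 1.03 ± 1.15 TPM untreated in AML lines (4.28 ± 0.63, adjusted p = 0.001), and CEBPA, a myeloid factor, fell (-1.23 ± 0.36, adjusted p = 0.024). In endothelial lines ATF3 averaged 88.5 ± 44.5 TPM with IFNg+TNFa and 2.66 ± 0.513 TPM untreated (4.52 ± 0.77, adjusted p = 0.002). Of 8 genes for AU-rich element binding and transcript decay, 0 were called under TNFa in limma. At an unadjusted p under 0.05 were 2 in AML lines and 1 in endothelial lines, beside 6.94% and 6.79% of all genes. Under IFNg+TNFa 3 rose and 2 fell in AML lines, where 7.33% of all genes were called higher and 18.6% lower, among them the ribonuclease gene ZC3H12A (3.04 ± 0.38, adjusted p = 3.6e-04) and ZFP36 (2.60 ± 0.66, adjusted p = 0.013), which rose, and ZFP36L2 (-1.65 ± 0.37, adjusted p = 0.008), which fell. In endothelial lines ZC3H12A rose (1.96 ± 0.46, adjusted p = 0.013) and KHSRP fell (-0.91 ± 0.22, adjusted p = 0.017), beside 4.18% of all genes called higher and 10.3% lower.

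Genes that act with these chemokines in neutrophil capture and production followed. Of 12 such genes 11 were tested, and under TNFa 1 rose in AML lines and 5 in endothelial lines, beside 0.0864% and 0.784% of all genes called higher. ICAM1, which neutrophil integrins grip, averaged 63.8 ± 67.1 TPM with TNFa and 3.77 ± 5.20 TPM untreated in AML lines (3.79 ± 0.42, adjusted p = 0.005), and 610 ± 296 TPM with TNFa and 10.0 ± 5.43 TPM untreated in endothelial lines (5.80 ± 0.52, adjusted p = 1.0e-04). CSF2, which encodes GM-CSF, averaged 29.2 ± 18.8 TPM with TNFa in endothelial lines and was listed at 0 there untreated (4.76 ± 0.27, adjusted p = 1.6e-06). As for CXCL5, this error is understated, since CSF2 was at or near 0 in AML libraries and passed the filter through treated endothelial libraries alone. CSF2 had 1.52 TPM in iHUVEC and 2.78 TPM in TIME with IFNg+TNFa, against 15.9 and 42.6 TPM with TNFa alone, so it was lower in both lines. Under IFNg+TNFa 4 rose and 1 fell in AML lines, beside 7.33% of all genes called higher and 18.6% lower, and 7 rose in endothelial lines, beside 4.18% called higher, including IL1B in AML lines (5.36 ± 0.84, adjusted p = 0.001) and VCAM1 in endothelial lines (5.12 ± 1.21, adjusted p = 0.014). PECAM1, an endothelial junction gene, was the one that fell in AML lines (-1.15 ± 0.34, adjusted p = 0.025).

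Of 7 further CXC genes of chromosome 4, which lack the ELR motif or are platelet genes, 3 were tested, CXCL9, CXCL10 and CXCL11. Under TNFa 0 of them were called in limma in either cell type. At an unadjusted p under 0.05 were 0 in AML lines and 2 in endothelial lines, beside 6.94% and 6.79% of all genes. All 3 rose under IFNg+TNFa in both cell types, beside 7.33% of all genes called higher in AML lines and 4.18% in endothelial lines. Untreated libraries held at most 0.0875 TPM of CXCL9, 0.852 TPM of CXCL10 and 1.19 TPM of CXCL11. The 3 genes passed the filter only with treated libraries, so being tested already needed high treated levels. CXCL10, an attractant of T cells, averaged 7537 ± 7805 TPM with IFNg+TNFa and 0.0325 ± 0.0563 TPM untreated in AML lines (11.63 ± 1.43, adjusted p = 3.6e-04), and 12731 ± 3093 TPM with IFNg+TNFa and 0.684 ± 0.237 TPM untreated in endothelial lines (12.87 ± 1.76, adjusted p = 6.2e-04). CXCL10 was thus far above the most abundant ELR chemokine in both cell types under IFNg+TNFa.

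Likeness of pattern was measured as Pearson's r over the 20 libraries after each line's mean was subtracted, across 15037 genes outside the family, as a description with libraries sharing lines and treatments. The nearest genes to CXCL5 were AKAP12 (r = 0.975), SLC7A2 (0.972) and ART4 (0.968), and the same 3 genes were nearest to CXCL3, between 0.956 and 0.960. Among the genes near CXCL2 were CCL20 (0.913), itself a chemokine gene, and NAV2 (0.908). CXCL6 had CBLN2 (0.975), NAV2 (0.956) and CYP2J2, the last of these lower than NAV2. CXCL8 had NRIP1 (0.906) and the NF-kB pathway genes NFKBIE (0.892) and BIRC3 (0.892), and CXCL1 had MTMR7 (0.888), NRIP1 (0.882) and P4HA1 (0.872). Among the 6 genes themselves r was highest between CXCL3 and CXCL5 (0.970) and lowest between CXCL6 and CXCL8 (0.743).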

How the data were processed

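RNA of 20 libraries (5 lines, 4 treatments) was sequenced on an Illumina NovaSeq, per the labels' protocols. The authors deposited TPM values for 35168 genes and 170068 transcripts. Salmon 1.2.0, DESeq2 1.28.1 and GRCh38.p13 are named, with no roles, in the submitters' processing notes. No source used here gives the annotation release. Columns named x2 were read as IFNg+TNFa, the one treatment per line with no column of its own. Totals per library were 947940 to 995175 TPM, and depth is unknown. Symbols came from a gene name table for 35051 IDs, from GENCODE v29 for 110 and were missing for 7. No libraries were identical.

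Values were analysed as log2(TPM + 1), a scale that understates changes of low genes, in limma 3.58.1 (R 4.3.3, moderation with a mean trend), with genes at 1 TPM or more in at least 2 libraries of the fit and Benjamini-Hochberg adjustment (threshold 0.05). Treatments were fitted over all libraries with terms for line and for treatment within cell type (9 residual degrees of freedom, 15043 genes). AML and endothelial lines were compared within each treatment (5 libraries, 3 residual degrees of freedom). The line pairs the libraries by the labels. Deviations of same-line libraries from group means correlated at 0.65 to 0.90 over 30 pairs. In the treatment fits p-values measure how far responses of lines of the same cell type differ, pooled over both cell types. In the comparisons within a treatment they measure the spread between lines of the same cell type. Both are moderated over all genes. Scripts were tested on simulated data. Promoter sequences were aligned with Biopython 1.88, and Python 3.11.15, pandas 2.3.3 and matplotlib 3.10.9 made tables and figures. The members and gene lists were chosen with earlier results of these data known. Named beside the members were, per list and comparison of TNFa or IFNg+TNFa with untreated cells, up to 2 called genes per direction with the largest change, and the 3 genes most correlated with each member, of which 1 is not reported here; CSF2 with IFNg+TNFa, TNFRSF1A, ACKR1, CXCR1 and the platelet genes were named after their values were seen. Alternatives were median-of-ratios scaling, removal of mitochondrial genes, a pseudocount of 0.1, no filter, a filter at 5 TPM, no variance trend, no line block, each cell type fitted alone, and leaving out each line.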

Additional observations from a re-analysis of the deposited data

Results flagged for a closer look

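Treatment responses that differed between AML and endothelial lines in the test of the difference itself (log2, AML minus endothelial, limma) were those of CXCL3 (-3.44, adjusted p = 0.019) and CXCL5 (-4.35, adjusted p = 1.7e-06) to TNFa. To IFNg+TNFa they were those of CXCL2 (-3.85, adjusted p = 0.012), CXCL3 (-4.70, adjusted p = 0.001) and CXCL5 (-4.92, adjusted p = 3.8e-07). With a pseudocount of 0.1 the IFNg+TNFa differences of CXCL2 (adjusted p = 0.186) and CXCL3 (0.174) lost the call. The TNFa difference of CXCL3 lost it there too and kept it under 4 of 12 alternatives. The CXCL5 values hold the endothelial response alone, as AML libraries were listed at 0. CXCL8 was higher with IFNg than untreated in each AML line and lower in each endothelial line, a difference of 2.31 between the cell types that did not pass the test (adjusted p = 1.000).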

How the results depend on the processing

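Treatment fits depended most on the line term. Without the replicate block the members called were 0 in place of 2 for IFNg+TNFa in AML lines, 3 in place of 5 for TNFa and 3 in place of 6 for IFNg+TNFa in endothelial lines, and 1 in place of 2 for the difference in TNFa response. That difference also had 1 call with a pseudocount of 0.1, without mitochondrial genes, and under median-of-ratios scaling. For IFNg+TNFa in AML lines the count was 4 with a pseudocount of 0.1 and 1 without a filter. For IFNg+TNFa against TNFa in endothelial lines it was 1 in place of 0 under median-of-ratios scaling. Without a filter the direct comparisons with TNFa and with IFNg+TNFa had 0 members called in place of 4 and 5. Leaving out 1 line at a time gave 0 to 1 members for TNFa and 1 to 2 for IFNg+TNFa in AML lines, 3 to 5 for TNFa and 0 to 1 for IFNg+TNFa against TNFa in endothelial lines, 1 to 3 for the difference in TNFa response, and 0 to 4 and 0 to 5 for the direct comparisons with TNFa and IFNg+TNFa.

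Sign changes were confined, among the settings run, to differences that had not passed the test. For IFNg+TNFa against TNFa, CXCL1 was 0.12 in AML lines and 0.21 in endothelial lines under median-of-ratios scaling, and CXCL3 was 0.041 in AML lines with a pseudocount of 0.1. With 1 line left out the AML values of that comparison ran from -0.84 to 0.58 for CXCL1, -0.43 to 0.59 for CXCL2, -0.51 to 0.088 for CXCL3 and -0.23 to 1.23 for CXCL8 (CXCL1 was 0.0023 without NOMO-1 and CXCL3 0.040 without Kasumi-1), and the endothelial ones from -0.51 to 0.31 for CXCL1 and -0.19 to 0.54 for CXCL6. For IFNg against untreated cells they ran from -0.19 to 0.50 for CXCL3 in AML lines, and in endothelial lines from -1.49 to 0.21 for CXCL1, -0.70 to 0.15 for CXCL3, -0.22 to 0.013 for CXCL5 and -0.24 to 0 for CXCL6. The difference in IFNg response ran from -2.11 to 0.16 for CXCL2, -0.013 to 0.22 for CXCL5 and -0.058 to 0.19 for CXCL6. The direct CXCL8 difference ran from -3.01 to 0.18 untreated and from -0.080 to 1.67 with IFNg. The cause of these changes was not tested. Of single member values over all alternatives, 829 kept direction and call, 67 lost a call, 15 gained one and 21 changed sign. Depth is unknown, so no limit from counting can be given, and levels under 1 TPM are the least certain.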
